A study of Mus musculus with 16 samples.

Results

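Iron crosses the surface of a cell, is stored in it and is released from heme through a small set of proteins, and 10 mouse genes for these steps are described here: the exporter Slc40a1, the uptake genes Tfrc, Slc11a2 and Steap3, the storage genes Fth1, Ftl1 and Ncoa4, the heme-degrading enzyme Hmox1, and the iron sensors Aco1 and Ireb2. They are 10 of the 25745 genes in the count table. The set was chosen by gene name with measured values in view, because Slc40a1 was close to absent from empty-vector cells. Its level between the vectors is therefore given as a description, with no test.

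The 16 RNA-seq libraries come from 6DT1, a mammary cancer cell line of mouse strain FVB/N1 by its label. They had received either a CLIC4 lentivirus, meant to supply this member of the chloride intracellular channel proteins, or an empty-vector virus. Each was left untreated or exposed for 24 h to 1 µM hydrogen peroxide (H2O2). Untreated lentivirus cells are libraries 1 to 4, treated lentivirus cells 5 to 8, untreated empty-vector cells 9 to 12 and treated empty-vector cells 13 to 16. The labels disagree on genotype: sample descriptions call the empty-vector cells CLIC4 knockout and the lentivirus cells wild type, and the design text names only the vectors. Whether each line is 1 clone or a pool, and whether the 4 libraries of a group are separate cultures, is not given in the sources used here. A p-value here reflects only how these libraries vary, and that variation may be technical.

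As background, ferroportin, the product of Slc40a1, is the iron exporter of animal cells, and the liver hormone hepcidin triggers its removal from the membrane. Transferrin receptor 1 (Tfrc) brings in transferrin-bound iron, Steap3 reduces that iron in the endosome and DMT1 (Slc11a2) carries it into the cytosol. Ferritin, built from heavy (Fth1) and light (Ftl1) chains, stores it, and NCOA4 takes ferritin to the lysosome for breakdown. Heme oxygenase 1 (Hmox1) opens the heme ring and frees its iron. The iron regulatory proteins IRP1 (Aco1) and IRP2 (Ireb2) bind hairpins in mRNA, the iron-responsive elements, when iron is scarce. Bound in a 5′ UTR they hold back translation, and bound in the 3′ UTR of Tfrc they protect the mRNA from decay.

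Those hairpins are shown because the iron regulatory proteins act through them, and because a 5′ UTR element acts on translation, which RNA counts do not measure. A search of the sense strand of UTRs in the mm10 annotation GENCODE vM21 used the letters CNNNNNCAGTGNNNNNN, with the 5 bases before and after the 6-base loop required to pair (G with U allowed). It found 7 matches in 4 of the 10 genes. Each is printed 5′ to 3′ as 29 bases with the loop in capitals.
Slc40a1 element 1: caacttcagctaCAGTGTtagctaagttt
Tfrc element 1: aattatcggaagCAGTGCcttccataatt
Tfrc element 2: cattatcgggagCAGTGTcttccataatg
Tfrc element 3: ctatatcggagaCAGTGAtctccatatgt
Tfrc element 4: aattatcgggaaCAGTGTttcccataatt
Fth1 element 1: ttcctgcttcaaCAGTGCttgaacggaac
Ftl1 element 1: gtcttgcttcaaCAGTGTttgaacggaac
The Slc40a1 element lies in the 5′ UTR at chr1:45925465-45925493 (minus strand) and is carried by 1 of 4 annotated coding transcripts. The 4 Tfrc elements lie in the 3′ UTR on the plus strand, at chr16:32631219-32631247, chr16:32631598-32631626, chr16:32631663-32631691 and chr16:32631710-32631738, each in 1 of 3 coding transcripts. The ferritin elements are in 5′ UTRs, that of Fth1 at chr19:9982732-9982760 (plus strand, 4 of 5 coding transcripts) and that of Ftl1 at chr7:45459779-45459807 (minus strand, 1 of 2). The same search matched 31 of 20915 genes with a 5′ UTR (0.148%) and 129 of 21024 with a 3′ UTR (0.614%). A match is a run of letters, and no match in the other 6 genes says only that these letters were not found there. The search therefore does not sort the 10 genes into those with and without an element.

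Levels below are CPM (counts scaled to library depth, with TMM factors between libraries) unless FPKM (scaled also to gene length) is named. Total counts ran from 47.1 M to 61.9 M. Library 11, from untreated empty-vector cells, was unlike the others. Its log2 CPM correlated with those of its group at 0.927 to 0.928 over genes, while each other pair within a group reached at least 0.997, and no pair was equal within sampling noise. The spread between replicates in the edgeR fit (biological coefficient of variation) was 23.1% with library 11 and 5.28% without it, so the fits are given both with and without it for the 10 iron genes. Clic4, the gene the vectors differ in, averaged 229 ± 10.4 and 243 ± 12.9 CPM (SD, n = 4 each) in untreated and treated lentivirus cells. It averaged 42.5 ± 1.93 (n = 3, without library 11) and 42.4 ± 2.35 (n = 4) in empty-vector cells, and stood at 138 in library 11. Genes annotated over the iron genes held few counts: Gm10252 had 36 and Gm22133 had 1, both over Ftl1. Gm5475, over Slc11a2, was not among the counted genes. The pseudogene Ftl1-ps1 held 15920 counts, equal to 0.739% of those of Ftl1, and strandedness is not given in the sources used here.

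Markers of other cells were read because macrophages and red cell precursors handle much iron. The 9 macrophage markers in the table summed to 78.2 to 93.1 CPM in lentivirus libraries and 225 to 386 CPM in empty-vector libraries. Cd68, a lysosomal protein also made outside macrophages, supplied most of this, at 79.9 ± 2.32 and 87.5 ± 5.04 CPM in lentivirus cells against 266 ± 69.5 and 239 ± 16.4 in empty-vector cells (SD, n = 4). Of the 4 markers that could be tested, edgeR called 3 higher with the empty vector in untreated cells (Cd68, Itgam and Cd163) and all 4, with Mrc1, in treated cells and in both conditions without library 11. Over all genes 29% were called higher and 24.3% lower in untreated cells, and 22.1% and 20% in treated cells. Without library 11 these shares were 37% and 37.3%, then 36.6% and 37.2%. Itgam averaged 0.0804 and 0.0173 CPM in lentivirus cells and 3.91 and 4.63 in empty-vector cells, and Cd163 and Mrc1 averaged at most 1.08 CPM in any group. Itgam and Mrc1 passed the filter on low counts through their empty-vector libraries, so that filter favoured the direction of their calls. Ptprc, Adgre1 and Spic were at 0 in all empty-vector libraries and held at most 7 counts in either lentivirus group. Csf1r had 559 counts in library 11 against 11 in the other 15 together. Lyz2 held 31 counts in untreated empty-vector cells, 24 of them in library 11, and 16 in treated ones, against 1 and 0 in lentivirus cells. The 6 erythroid markers summed to at most 1.29 CPM outside library 11 and to 20.3 CPM in it, where Slc4a1, with 686 counts, supplied most. Of 2 tested, Epor was called higher with the empty vector and Klf1 lower, in both conditions, with and without library 11. In untreated cells they were at log2 changes of 2.65 and -2.55. Epor passed the filter on low counts through its empty-vector libraries and Klf1 through its lentivirus libraries. The 9 fibroblast markers summed to 13.7 to 18.3 CPM in lentivirus libraries and 17.4 to 22.2 in empty-vector libraries. That sum hid opposite moves: of 5 tested, Col1a2 and Pdgfra were called higher with the empty vector and Col1a1, Dcn and Lum lower. This held in both conditions, with and without library 11, beside the same shares of all genes. Col1a2 passed the filter on low counts through its empty-vector libraries, and Dcn and Lum through their lentivirus libraries. In untreated cells Pdgfra was at a log2 change of 1.89 and Dcn at -4.20. The 11 epithelial markers summed to 565 to 619 and 928 to 1443 CPM and came mostly from keratins, while the epithelial adhesion gene Epcam, a defining marker of the labelled cell type, had 8 counts in the other 15 libraries together and 500 in library 11. All 4 epithelial markers tested (Elf3, Krt8, Krt18 and Krt19) were called higher with the empty vector in both conditions, with and without library 11. The part of these cell types in the results below was not tested, and in bulk RNA fewer cells of a type cannot be told apart from less RNA per cell.

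The exporter Slc40a1 (chr1:45908068-45926523) was present at a steady level with the CLIC4 lentivirus and close to absent with the empty vector. The untreated lentivirus libraries held 54.7, 53.2, 55.1 and 54.6 CPM, and the treated ones 60.1, 60.3, 54.5 and 52.9 CPM. Libraries 9, 10, 11 and 12, the untreated empty-vector cells, held 6, 6, 0 and 2 counts. Treated empty-vector libraries 13 to 16 held 13, 4, 3 and 3 counts. All 8 lentivirus libraries were thus far above all 8 empty-vector libraries, and library 11, which departed from its group in most iron genes, did not depart in this one.

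Summed over its 4 libraries, the untreated lentivirus group held 11810 counts of Slc40a1 and the untreated empty-vector group 14, or 54.4 ± 0.844 against 0.0611 ± 0.0514 CPM (SD, n = 4). The ratio of these means was 890.2, and 668 without library 11. The treated groups held 12968 and 23 counts, or 56.9 ± 3.82 against 0.102 ± 0.0896 CPM, a ratio of 560.0. The fitted log2 change was -9.63 in untreated cells (-9.33 without library 11) and -9.12 in treated cells, values that depend on a prior count at such low levels. In library 11 a count of 0 allows up to 0.0778 CPM, a limit of 3 counts that covers counting error only.

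**Figure D1:**
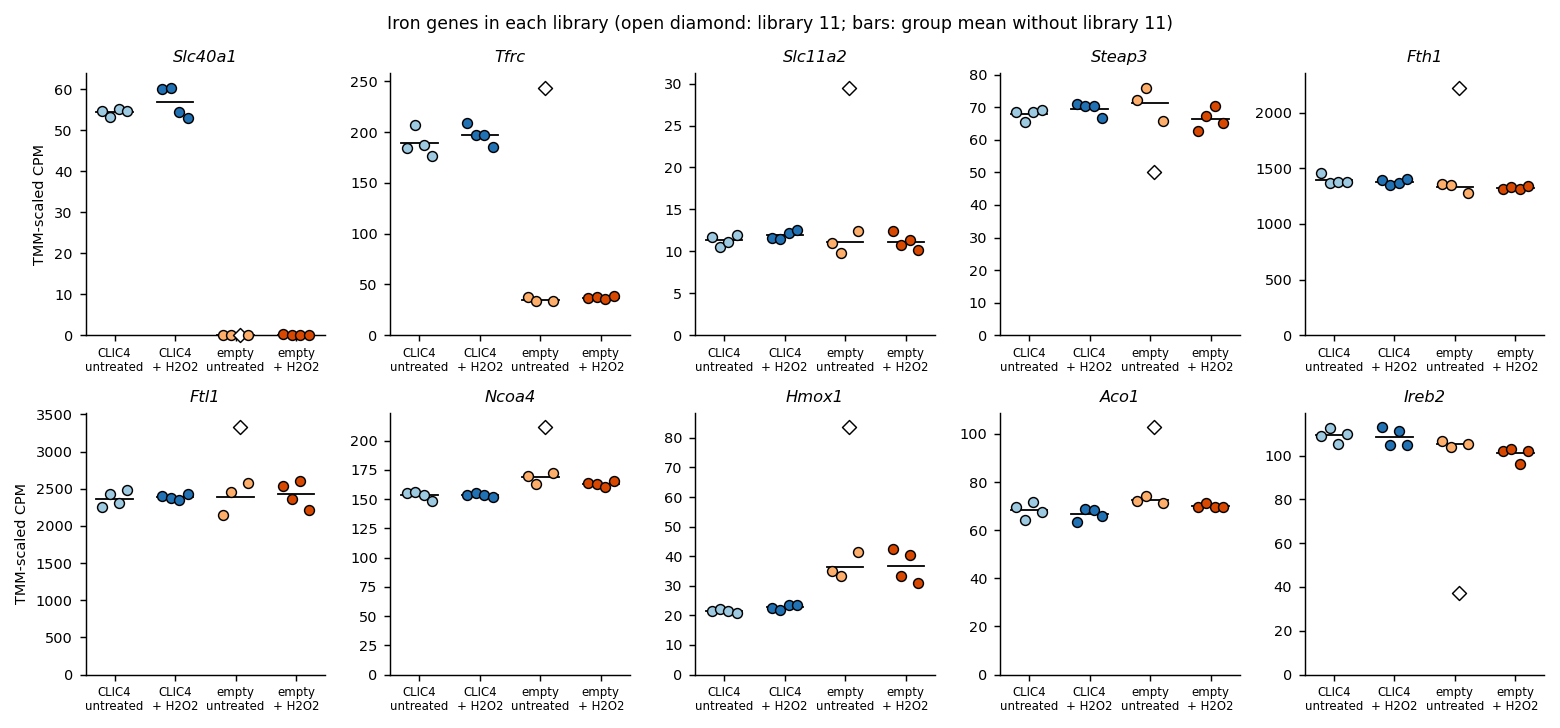
TMM-scaled CPM (linear axis, from 0) of the 10 iron genes in each library, by group, with a point for each library, an open diamond for library 11 and a bar at the group mean without library 11. Slc40a1 and Tfrc sit low in empty-vector cells and Hmox1 sits high, and library 11 lies away from its group in most panels.

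Across the 9988 genes compared, 75 followed Slc40a1 over the 16 libraries with a Pearson r above 0.99 on log2(CPM + 0.5). The 5 closest were Fhit, Pkia, Sertad4, Fam135b and Ssbp2, each at r = 0.999. With library 11 left out they ranked 6, 8, 7, 1 and 19, and the closest 5 were then Fam135b, Lpl, Cgn, Tmtc2 and Cdon. Fhit ran from 13.0 to 14.9 CPM in lentivirus libraries and from 0 to 0.106 in empty-vector libraries. Pkia, which encodes an inhibitor of protein kinase A, ran from 8.56 to 9.81 CPM in lentivirus libraries and had no counts in empty-vector libraries. Ssbp2 differed less, at 39.5 to 42.9 CPM against 4.04 to 4.97. These values describe a split between the vectors that the genes share, and carry no test.

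Of the 9 genes that can be tested between the vectors, edgeR's quasi-likelihood test called 2 in untreated cells, Hmox1 and Ncoa4, both higher with the empty vector. Among all 14445 genes tested 53.3% were called there, so 2 of 9 is below the background. Without library 11 it called 4 (Tfrc, Hmox1, Ncoa4 and Aco1) against 74.4% of genes. In treated cells it called 2, Tfrc and Hmox1, against 42.1% of genes, and without library 11 it called 4 (Tfrc, Hmox1, Ncoa4 and Ireb2) against 73.8%. The number of iron genes called was thus not above the share of all genes. All 10 genes passed the filter on low counts, Slc40a1 through its lentivirus libraries.

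**Figure D2:**
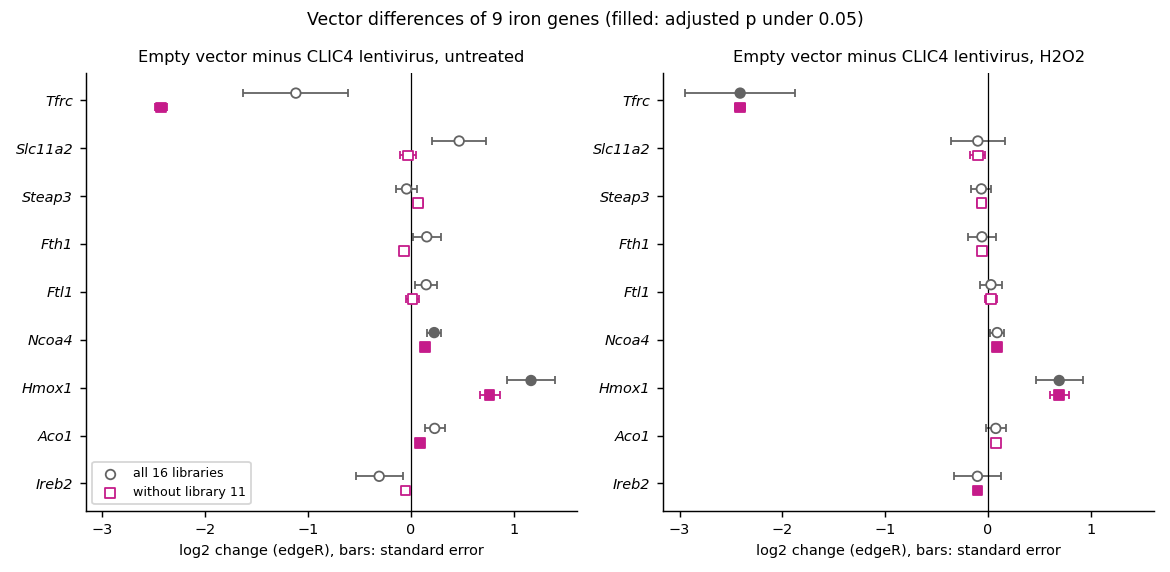
Log2 change (edgeR) of the 9 iron genes other than Slc40a1, empty vector minus lentivirus, with bars of 1 standard error, in untreated and treated cells, with all 16 libraries (circles) and without library 11 (squares), filled where the adjusted p is under 0.05. Tfrc lies at -1.12 in untreated cells with library 11 and near -2.4 in the other 3 fits, while the intervals shrink for every gene shown once library 11 is out.

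Tfrc (chr16:32608920-32632794), the uptake receptor, was lower with the empty vector by a wide gap in treated cells, and in untreated cells once library 11 was left out. The untreated lentivirus libraries held 184, 207, 187 and 177 CPM and the treated ones 209, 197, 197 and 185 CPM. Untreated empty-vector libraries 9, 10 and 12 held 37.5, 33.8 and 33.8 CPM, and library 11 held 243. The treated empty-vector libraries held 36.5, 37.5, 35.6 and 38.5 CPM. The vectors did not overlap in treated cells, and library 11 alone bridged them in untreated cells, lying above every lentivirus library in CPM and, at 39.1 FPKM, just below their lowest value of 41.3 FPKM.

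In treated cells Tfrc was 5.32-fold lower with the empty vector (log2 change -2.41, SE 0.532, edgeR adjusted p = 0.00199). The fit without library 11 gave -2.41 as well (SE 0.0505, edgeR adjusted p = 4.18e-18). In untreated cells the means were 189 ± 13.1 and 87.1 ± 104 CPM (SD, n = 4), and the difference was not called (log2 change -1.12, SE 0.511, edgeR adjusted p = 0.0782). Without library 11 the empty-vector mean was 35.0 ± 2.17 (n = 3), a 5.39-fold lower level (log2 change -2.43, SE 0.0566, edgeR adjusted p = 2.19e-17). With library 11 kept, limma on log2(FPKM + 1) called it at -1.65 (adjusted p = 8.97e-04). Over the 15 other libraries Tfrc and Slc40a1 had a Pearson r of 0.998 on log2 CPM, and of 0.839 over all 16. Both figures describe points that share the split between vectors.

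The endosomal carrier and reductase behaved differently from the receptor. Slc11a2 (chr15:100387898-100425072) held 10.5 to 12.6 CPM in lentivirus libraries and 9.85 to 12.4 in empty-vector libraries, except for 29.5 in library 11. The vector groups overlapped, and neither comparison was called, at log2 changes of 0.47 (SE 0.261, edgeR adjusted p = 0.143) untreated and -0.10 (SE 0.261, edgeR adjusted p = 0.798) treated. Without library 11 the log2 change was -0.03 (SE 0.0777) in untreated cells and -0.10 (SE 0.0712) in treated cells. Without library 10 instead, the untreated change was called, at 0.64 with an edgeR adjusted p of 0.0462, and library 11 then made up a larger share of its group. Steap3 (chr1:120190757-120272705) held 65.6 to 70.9 CPM with the lentivirus and 62.8 to 75.9 with the empty vector, again apart from library 11 at 50.1. Its groups overlapped too, with log2 changes of -0.04 (SE 0.0977) and -0.07 (SE 0.0977) and edgeR adjusted p of 0.729 and 0.637. Without library 11 the values were 0.07 (SE 0.0449, edgeR adjusted p = 0.163) and -0.06 (SE 0.0416, edgeR adjusted p = 0.169), so the untreated sign depended on that library.

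The ferritin chains differed little between the vectors. Fth1 (chr19:9980598-9985098), the heavy chain that oxidises iron, held 1456, 1366, 1381 and 1376 CPM in untreated lentivirus cells and 1360.4, 1348 and 1279 in empty-vector libraries 9, 10 and 12, with 2221 in library 11. Treated cells held 1392, 1353, 1368 and 1402 CPM with the lentivirus and 1311, 1328, 1311 and 1339 with the empty vector. The groups did not overlap once library 11 was set aside, with the empty vector lower by a small margin. In untreated cells the log2 change was 0.15 (SE 0.134, edgeR adjusted p = 0.342) with all libraries and -0.07 (SE 0.0322, edgeR adjusted p = 0.0626) without library 11, so its sign turned with that library. In treated cells it was -0.06 with all libraries (SE 0.134, edgeR adjusted p = 0.76) and -0.06 without library 11 (SE 0.0298, edgeR adjusted p = 0.0794). The treated difference was called by edgeR on the compared groups alone (adjusted p = 0.0482) and by voom with library weights (adjusted p = 0.0361).

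Ftl1 (chr7:45457944-45459884), the light chain, ranged from 2249 to 2485 CPM in lentivirus libraries and from 2140.7 to 2609 in empty-vector libraries, with library 11 at 3325. Its log2 changes were 0.15 (SE 0.106, edgeR adjusted p = 0.25) and 0.03 (SE 0.106, edgeR adjusted p = 0.866). With library 11 left out they were 0.02 (SE 0.0597, edgeR adjusted p = 0.824) and 0.03 (SE 0.0553, edgeR adjusted p = 0.655). The groups overlapped in both comparisons, and the libraries of the empty vector were the more scattered. On the FPKM scale library 11 lay inside the range of its group for Ftl1, at 3173, so its high place in CPM depended on the scaling.

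Ncoa4 (chr14:32159865-32179855), the ferritin carrier, was slightly higher with the empty vector. The lentivirus libraries held 155, 156, 154 and 149 CPM untreated and 154, 155, 154 and 152 CPM treated. The empty-vector libraries held 170.0, 163, 211 (library 11) and 172 CPM untreated and 164, 163, 161 and 166 CPM treated. No empty-vector library fell into the lentivirus range in CPM. In FPKM library 11, at 46.83, lay just below the lowest lentivirus library, at 46.96. In untreated cells the means differed 1.17-fold (1.10-fold without library 11), with a log2 change of 0.23 (SE 0.0672) and an edgeR adjusted p of 0.0115. Without library 11 it was 0.14 (SE 0.0273, edgeR adjusted p = 1.37e-04). With library 11 kept, the call was lost in a fit on the compared groups alone (adjusted p = 0.118) and with limma on log2(FPKM + 1) (adjusted p = 0.0607), a scale on which library 11 was the lowest of its group at 46.8 FPKM. In treated cells the log2 change was 0.09 (SE 0.0672, edgeR adjusted p = 0.325), and it was called without library 11 (SE 0.0253, edgeR adjusted p = 0.00373).

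Hmox1 (chr8:75093621-75100589), an enzyme widely used as a readout of oxidant and heme stress, was higher with the empty vector in both conditions. The lentivirus libraries held 21.3, 22.2, 21.4 and 20.9 CPM untreated and 22.4, 21.9, 23.4 and 23.4 CPM treated. Empty-vector libraries 9, 10 and 12 held 34.9, 33.2 and 41.4 CPM, library 11 held 83.6, and treated libraries 13 to 16 held 42.5, 33.2, 40.6 and 31.0 CPM. Every empty-vector library lay above every lentivirus library, and the empty-vector libraries were spread more widely.

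The untreated means were 48.3 ± 23.8 and 21.5 ± 0.519 CPM (SD, n = 4), a 2.25-fold difference (log2 change 1.17, SE 0.232, edgeR adjusted p = 7.85e-04). Without library 11 it was 1.70-fold (log2 change 0.77, SE 0.0979, edgeR adjusted p = 4.2e-06). The treated means were 36.8 ± 5.58 and 22.8 ± 0.754 CPM, a 1.61-fold difference (log2 change 0.69, SE 0.23, edgeR adjusted p = 0.0253). This treated call was lost when any of libraries 5, 6, 13 or 15 was left out, with edgeR adjusted p of 0.0535, 0.0587, 0.0687 and 0.0605 and log2 changes of 0.62 to 0.69. Without library 11 it was called at 0.69 (SE 0.0909, edgeR adjusted p = 5.47e-06). The rise in Hmox1 ran opposite to Slc40a1 and Tfrc over the 15 libraries, with Pearson r of -0.943 and -0.947 on log2 CPM (-0.824 and -0.416 over all 16), again as a description of the split.

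The iron sensors moved by small amounts. Aco1 (chr4:40143081-40198338), which serves as a cytosolic aconitase when it carries its iron-sulfur cluster, held 63.5 to 71.7 CPM with the lentivirus, 69.5 to 74.0 with the empty vector and 103 in library 11. Its untreated log2 change of 0.23 (SE 0.0973) was not called with all libraries (edgeR adjusted p = 0.0587). It was called when any 1 of libraries 9, 10, 11 or 12 was left out, at 0.28, 0.27, 0.09 and 0.28 with edgeR adjusted p of 0.0346, 0.0459, 0.0367 and 0.0304. With library 9, 10 or 12 left out, library 11 made up a larger share of its group. The treated groups did not overlap, with a log2 change of 0.07 (SE 0.0973, edgeR adjusted p = 0.585), and of 0.08 (SE 0.0345, edgeR adjusted p = 0.056) without library 11. In FPKM library 11 held 20.7, inside the narrow range of its group.

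Ireb2 (chr9:54863789-54912530), the sensor that is degraded when iron is plentiful, held 105 to 113 CPM in lentivirus libraries and 96.2 to 107 in empty-vector libraries, with 37.1 in library 11. Its log2 changes were -0.31 (SE 0.227, edgeR adjusted p = 0.264) and -0.10 (SE 0.227, edgeR adjusted p = 0.756). The treated groups did not overlap, and without library 11 that comparison was called at -0.10 (SE 0.0322, edgeR adjusted p = 0.00722). The untreated groups overlapped and were not called without library 11 (log2 change -0.05, SE 0.0348, edgeR adjusted p = 0.177).

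Compared per length, in FPKM and without library 11, the ferritin chains stood far above the rest in every group. In untreated lentivirus cells the medians were 3164 FPKM for Ftl1 and 1934 for Fth1, followed by 49.2 for Ncoa4, 44.9 for Tfrc, 26.4 for Steap3, 19.8 for Ireb2, 19.0 for Aco1, 17.7 for Slc40a1, 16.0 for Hmox1 and 3.71 for Slc11a2. Neighbours that overlapped in that order were Ncoa4 with Tfrc, Ireb2 with Aco1, and Aco1 with Slc40a1. In untreated empty-vector cells Ftl1 (3344), Fth1 (1935) and Ncoa4 (58.4) kept their places, Steap3 (29.5) and Hmox1 (26.7) overlapped, and Aco1 (20.6) and Ireb2 (19.8) came next. Tfrc (9.59), Slc11a2 (4.34) and Slc40a1 (0.03) closed the order. The treated groups had the same order within each vector, apart from Hmox1 and Steap3, which exchanged places in empty-vector cells and overlapped there. In treated lentivirus cells Slc40a1 also overlapped Hmox1.

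**Figure D3:**
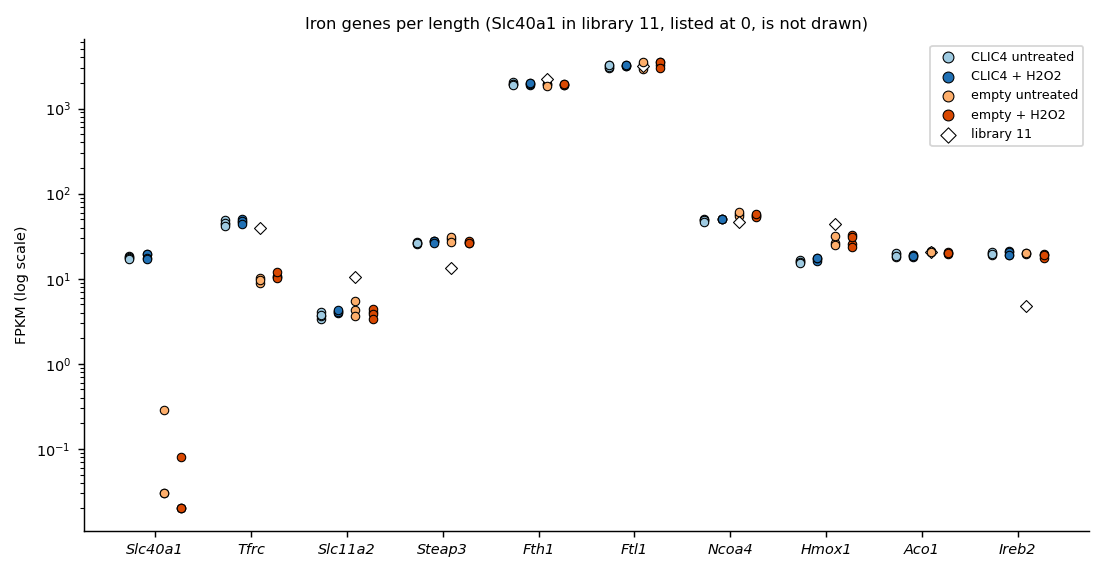
FPKM per library (log axis) of the 10 iron genes in the 4 groups, with library 11 as diamonds. The ferritin genes lie far above the rest in all groups, and Slc40a1 lies at 17.2 to 19.6 FPKM in lentivirus cells and at most 0.29 in empty-vector cells.

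The ratio of Fth1 to Tfrc mRNA, in FPKM, was higher with the empty vector. It was 39.1 to 46.5 in untreated and 40.1 to 45.3 in treated lentivirus libraries. It was 193 to 217 in untreated empty-vector libraries 9, 10 and 12 and 161 to 186 in treated ones, while library 11, at 57.1, lay nearer the lentivirus libraries. The ratio of light to heavy ferritin chain overlapped between the vectors, at 1.46 to 1.71 and 1.49 to 1.91 in untreated cells. The ratio of Aco1 to Ireb2 was 0.871 to 1.04 in untreated lentivirus libraries, 1.04 to 1.09 in libraries 9, 10 and 12 and 4.29 in library 11.

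Library 11 departed from its own group by gene. In CPM, against the mean of libraries 9, 10 and 12, it was 6.95-fold higher in Tfrc, 2.66-fold in Slc11a2, 2.29-fold in Hmox1, 1.67-fold in Fth1 and 3.25-fold in Clic4. It was 2.84-fold lower in Ireb2 and 1.42-fold lower in Steap3. These folds depend on the scaling, since on the deposited FPKM the same library was 4.10-fold higher in Tfrc, 2.35-fold in Slc11a2, 1.59-fold in Hmox1, 1.16-fold in Fth1 and 2.26-fold in Clic4, and 4.08-fold lower in Ireb2 and 2.18-fold lower in Steap3. On both scales its Clic4 and Tfrc levels lay nearer the lentivirus cells than those of its group did, Hmox1 lay farther from them, and Slc40a1 was at 0. The part of any single factor in this was not tested.

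The other genes of iron handling were read in 5 lists, given by counts and medians. Among genes that work with ferroportin or control hepcidin, 7 of 13 in the table were tested, and 1 was higher and 2 were lower with the empty vector in untreated cells (1 and 3 in treated cells). Leaving out library 11 gave 1 and 2, then 1 and 5, against 37% and 37.3%, then 36.6% and 37.2%, of all genes. With every library, over all genes the shares were 29% higher and 24.3% lower in untreated cells and 22.1% and 20% in treated cells. Hfe, the hemochromatosis protein that binds transferrin receptor 1, was lower at log2 changes of -1.94 and -1.75 (edgeR adjusted p = 2.46e-04 and 5.93e-04). Tmprss6, a protease that restrains hepcidin in liver, was lower at -2.02 and -3.04 (edgeR adjusted p = 0.00102 and 4.83e-05) from a level of only 0.366 CPM in untreated lentivirus cells. It passed the filter on low counts through its lentivirus libraries, so that filter favoured its direction. Cp, the ferroxidase ceruloplasmin that works beside ferroportin, was higher at 0.59 and 0.50 (edgeR adjusted p = 0.00249 and 0.00827). In untreated cells without library 11, Hfe was at -1.64, Tmprss6 at -1.68 and Cp at 0.51, all called.

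The tested genes of other iron uptake and reduction mostly stood higher with the empty vector. Of the 14 genes present, 8 were tested, of which 6 were higher and none lower in untreated cells (median log2 change 1.56, and 0.88 without library 11), with 5 higher and none lower in treated cells (median 0.87). Over all genes 29% were higher and 24.3% lower in untreated cells, and 22.1% and 20% in treated cells. Leaving out library 11 gave 7 higher and 1 lower, then 7 and 0, against 37% and 37.3%, then 36.6% and 37.2%, of all genes. Slc39a14, the importer ZIP14 for iron not bound to transferrin, was higher at 0.84 and 0.74 (edgeR adjusted p = 7.95e-09 and 2.51e-08). Steap1, of the metalloreductase family, was higher at 2.29 and 2.28 (edgeR adjusted p = 1.57e-08 and 1.72e-08). Lcn2, the siderophore-binding protein lipocalin 2, was higher at 3.16 and 2.44 (edgeR adjusted p = 5.68e-08 and 5.63e-07). In untreated cells without library 11 these were at 0.80, 2.15 and 3.05, all called. The medians rest on 8 genes, and Cubn, named after its values were seen, was at 3.79 with all libraries and 0.50 without library 11. Slc11a1, called higher in both conditions, averaged 0.0440 and 0.0442 CPM in untreated and treated lentivirus cells and 1.30 and 0.836 in empty-vector cells. It passed the filter on low counts through its empty-vector libraries, so that filter favoured its direction. Scara5, with 26 and 29 counts in the lentivirus groups and 2 and 3 in the empty-vector groups, was not tested.

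The list of iron chaperones, ferritin turnover and IRP control had 3 higher and none lower of 12 tested in untreated cells, and 2 and 1 in treated cells. The counts became 4 and 5, then 3 and 3, without library 11. Beside them stand shares over all genes of 29% higher and 24.3% lower (untreated) and 22.1% and 20% (treated), and without library 11 of 37% and 37.3%, then 36.6% and 37.2%. Pcbp4, of the poly(rC)-binding protein family that includes iron chaperones, was higher at 1.83 and 1.36 (edgeR adjusted p = 4.65e-05 and 5.96e-04), and at 1.34 in untreated cells without library 11. In untreated cells Tax1bp1, an autophagy adaptor used in ferritin turnover, was higher at 0.55 and Herc2, a ubiquitin ligase that acts on NCOA4, at 0.98, with edgeR adjusted p of 0.0106 and 0.0175. With library 11 left out these were 0.27 and 0.42, at adjusted p of 1.12e-07 and 0.0437. With every library neither was called in treated cells, with Tax1bp1 at 0.23 and Herc2 at -0.24 (edgeR adjusted p = 0.278 and 0.587). Without library 11 Tax1bp1 was called higher there and Herc2 was not called. In treated cells Pcbp2 was lower at -0.25 and Pcbp3 higher at 0.72, with edgeR adjusted p of 0.0111 and 0.0451.

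Of 24 heme genes tested, 5 were higher and 3 lower in each condition, shares at or below those of all genes (29% and 24.3% untreated, 22.1% and 20% treated). These became 11 and 6, then 12 and 6, without library 11, against 37% and 37.3%, then 36.6% and 37.2%. There the higher counts stood above their shares and the lower counts below, by a few genes of 24, with median log2 changes of 0.07 and 0.08. The side of the higher counts depended on library 11, and a departure from the background was not tested. Abcb10, a mitochondrial transporter needed for heme synthesis, was lower at -0.56 and -0.48, and Alad, an early enzyme of that pathway, was higher at 0.33 and 0.28 (edgeR adjusted p = 5.77e-05, 2.62e-04, 6.76e-04 and 0.00257). Pgrmc1, a heme-binding membrane protein, was lower at -0.40 in untreated cells, and Ppox, a late enzyme of heme synthesis, was higher at 0.44 in treated cells (edgeR adjusted p = 0.00101 and 0.00487). The untreated values of Abcb10, Alad and Pgrmc1 without library 11 were -0.47, 0.35 and -0.31, all called.

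Of 34 genes of mitochondrial iron and iron-sulfur assembly, 9 were higher and 6 lower in untreated cells and 6 and 3 in treated cells. The shares over all genes were 29% and 24.3%, then 22.1% and 20%, so with every library these counts were near or below the background. They became 12 and 11, then 15 and 10, without library 11, against 37% and 37.3%, then 36.6% and 37.2%. There the 15 of 34 higher in treated cells stood above its share by a few genes, and the other counts stood below theirs. The side of that count depended on library 11, and a departure from the background was not tested. Mms19, which hands clusters to nuclear enzymes, was higher at 0.56 and 0.54 (edgeR adjusted p = 2.35e-07 and 3.48e-07). Iba57, a late factor of mitochondrial cluster assembly, was lower at -1.30 and -1.28 (edgeR adjusted p = 2.89e-07 and 3.48e-07). Cisd1, the outer-membrane cluster protein mitoNEET, was higher at 0.72 and 0.60 (edgeR adjusted p = 5.09e-06 and 3.20e-05). In untreated cells without library 11 these were at 0.53, -1.18 and 0.63, all called.

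**Figure D4:**
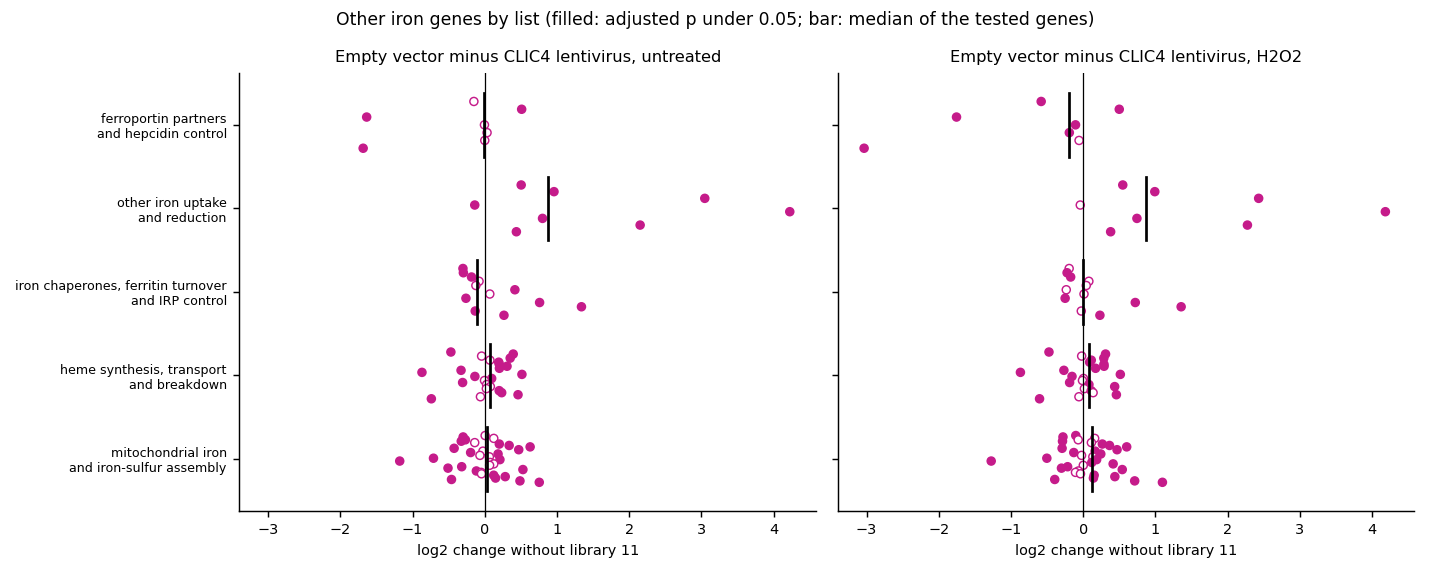
Log2 change (edgeR, without library 11), empty vector minus lentivirus, of each tested gene in the 5 other iron lists, in both conditions, filled where the adjusted p is under 0.05, with the list median as a bar. The list of other iron uptake and reduction has its median at 0.88 in untreated and 0.87 in treated cells, and the medians of the other 4 lists lie between -0.19 and 0.12.

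At this dose and time of H2O2, none of the 10 iron genes was called in either kind of cell, by edgeR or under any alternative run. In lentivirus cells the log2 changes ran from -0.03 to 0.09, edgeR's adjusted p was 1 for each, and none had an unadjusted p under 0.05. Among all genes edgeR called 0% there, with 255 of 14445 at an unadjusted p under 0.05. DESeq2 called 1 gene, voom with library weights 24, and edgeR on the compared groups alone 121. Without library 11 the standard errors fell to between 0.0254 and 0.0938, and the smallest edgeR adjusted p over the iron genes was 0.587.

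In empty-vector cells edgeR likewise called 0% of genes, with 2120 at an unadjusted p under 0.05, while DESeq2 called 38 and voom with library weights called 98. Tfrc had a log2 change of -1.23 (SE 0.513, unadjusted p = 0.0309, edgeR adjusted p = 0.339), which became 0.08 (SE 0.055, edgeR adjusted p = 0.59) without library 11. Hmox1 went likewise from -0.39 (SE 0.229) to 0.01 (SE 0.0956), with edgeR adjusted p of 0.381 and 0.984. The size of both changes in the full fit thus rested on library 11, which is in the untreated group. Slc40a1 was at 0.57 (SE 0.567) and 0.27 (SE 0.55), on a total of 14 and 23 counts per group.

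Without library 11, the 9 genes other than Slc40a1 had log2 changes of -0.10 to 0.08 in empty-vector cells, and edgeR called 0.24% of all genes. Steap3 was the single iron gene with an unadjusted p under 0.05 (log2 change -0.10, SE 0.0448, unadjusted p = 0.0352, edgeR adjusted p = 0.313).

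The difference between the H2O2 responses of the vectors was tested directly. EdgeR called none of the 10 genes and 0% of all genes with every library (859 genes at an unadjusted p under 0.05, 15 called by DESeq2, 21 by voom), and 0.192% without library 11. For Tfrc the difference was -1.29 (SE 0.717, edgeR adjusted p = 0.658), and 0.02 (SE 0.0722, edgeR adjusted p = 0.933) without library 11. Hmox1 differed by -0.48 (SE 0.324, edgeR adjusted p = 0.658), and by -0.07 (SE 0.134) without library 11. The smallest edgeR adjusted p without library 11 was 0.281, for Steap3, at -0.14 (SE 0.0612).

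**Figure D5:**
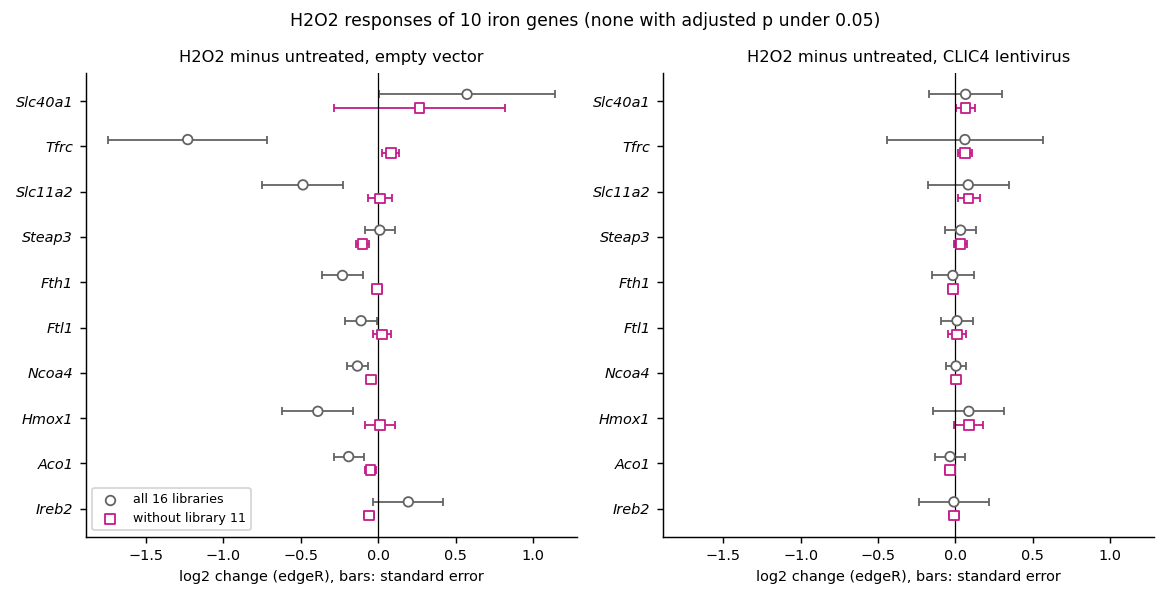
Log2 change, treated minus untreated, of each iron gene in lentivirus and empty-vector cells with bars of 1 standard error, with all 16 libraries and without library 11. Apart from Slc40a1, the values without library 11 lie between -0.10 and 0.09 in both kinds of cell, and the wide empty-vector value of Tfrc (-1.23) appears with library 11 kept.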

How the data were processed

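RNA from 6DT1 cells was extracted on an RNeasy kit and sequenced as Illumina libraries, per the labels' protocols. The submitters' processing notes name cutadapt, STAR and RSEM and the build mm10. For tool versions, annotation and strand setting, nothing is given in the sources used here. Whole-number counts per gene for 16 libraries were deposited by the authors and may be rounded RSEM estimates. The authors also deposited FPKM, scaled to gene length and depth. The number of value columns that matched no sample was 0.

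Groups of 4 libraries came from sample titles. The test was edgeR 4.0.16's robust quasi-likelihood F test (R 4.3.3) on the counts, with TMM scaling, filterByExpr (14445 genes kept, 14602 without library 11), a coefficient per group and Benjamini-Hochberg adjustment over all genes, called under 0.05. The SE is the log2 change over the square root of F. Alternatives were RLE scaling, DESeq2 1.42.0, no filter, the compared groups alone, limma 3.58.1 on log2(FPKM + 1) and log2(FPKM + 0.1), voom with library quality weights, and leaving out each library. With a pseudocount added to FPKM, the change of a low gene is understated. The script was tested on simulated data with no outlying library, a setting unlike the fits that keep library 11.

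The members and lists were chosen with earlier results of these data known. Named genes are the 10 iron genes, Clic4, up to 3 called genes per iron list and vector comparison by smallest adjusted p whose groups do not overlap, and the 5 genes with the highest r with Slc40a1 over 16 libraries (average log2 CPM of at least 2). Figures used matplotlib 3.10.9.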

Additional observations from a re-analysis of the deposited data

Results flagged for a closer look

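In each group of 4 libraries a level was marked when the highest or lowest library lay farther from the nearest of the others than Dixon's 95% limit allows. Chance marks about 1 in 20 groups, and 11 of 40 were marked, 6 of them by library 11. Library 11 was the highest of the untreated empty-vector group in Tfrc (243 CPM, next 37.5), Slc11a2 (29.5, next 12.4), Fth1 (2221, next 1360), Hmox1 (83.6, next 41.4) and Aco1 (103, next 74), and the lowest in Ireb2 (37.1, next 104). These marks depend on the scale, because in FPKM 2 of these 6, Tfrc (39.1 FPKM) and Ireb2 (4.82 FPKM), passed the limit and Slc11a2, Fth1, Hmox1 and Aco1 did not.

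The other 5 were spread over 5 libraries, and 2 of them, Slc40a1 and Ireb2, also passed in FPKM. Fth1 was highest in untreated lentivirus library 1 (1456 CPM, next 1381) and Steap3 lowest in treated lentivirus library 8 (66.7, next 70.3). Among treated empty-vector libraries, Slc40a1 was highest in library 13 (0.235 CPM from 13 counts, next 0.069), Aco1 highest in library 14 (71.4, next 69.8) and Ireb2 lowest in library 15 (96.2, next 102).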

How the results depend on the processing

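No paired analysis was possible because no library number is shared between groups. In untreated cells the count of iron genes called between the vectors was 2, 1 with the compared groups alone and 4 with voom weights, and 2 to 4 leaving out each library. In treated cells it was 2, 1 with DESeq2 (which gave Tfrc no adjusted p), 5 with the compared groups alone and 6 with voom weights, and 1 to 4 leaving out each library. The cause was not tested. No called value changed sign. Of 1131 values under alternatives, 1093 kept their side of the threshold or moved within the replicate spread, though 60 uncalled values had the other sign. Slc40a1 was at -4.11 and -4.23 on log2(FPKM + 1), at -6.80 and -7.13 on log2(FPKM + 0.1), and at -9.91 in treated cells without library 13. On FPKM the median change over all genes in treated minus untreated empty-vector cells was 0.11 and 0.14 with pseudocounts of 1 and 0.1, against 0.02 in edgeR. Over all genes, the untreated comparison called 7700 and 4426 with the compared groups alone. The treated one called 6079, and 10491 with the compared groups alone, 10916 with voom and 10779 without library 11. Empty-vector counts of Slc40a1 are near the limit of 3 counts per library, where depth sets the precision.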

Other observations

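The deposited FPKM of Slc40a1 did not follow its counts where these were few. Library 12 listed 0.29 FPKM from 2 counts, while libraries 9 and 10 listed 0.03 FPKM from 6 counts each, so the order of empty-vector libraries differs between the scales.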
